A study of Homo sapiens with 94 samples.

Results

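The glucocorticoid-responsive genes described here are 8 of the 20239 gene IDs of the expression table, chosen by symbol: NR3C1, FKBP5, TSC22D3, ZBTB16, KLF9, SGK1, DUSP1 and ERRFI1. Each symbol matched 1 gene ID, and the rule used symbols alone. They were read as markers of handling stress and of host glucocorticoid in xenografted tumor cells, across tumors of untreated, vehicle-treated and drug-treated mice.

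The study used NCI-H226, an established human malignant pleural mesothelioma cell line with a deleted NF2 gene, grown under the skin of female CB17 SCID mice that were 6 to 8 weeks old. K-975, an inhibitor of the TEAD transcription factors that partner with YAP and TAZ, was given once by mouth at 30, 100 or 200 mg/kg, and tumors were taken in 3 studies, named here by their time after dosing (1 h, 3-6 h, 24 h). Every study had an untreated group and a vehicle group, and the vehicle was ethanol, Solutol and injectable glucose. RNA of 94 tumors was sequenced after capture of transcripts with probes, and levels were deposited as FPKM, a fragment count divided by gene length and by library size. The dosing volume was 20 mL/kg for vehicle and the 200 mg/kg dose, whereas the lower doses used 10 mL/kg. All groups shared the cell line and the strain. A group held 5 tumors from 1 cage group, except that the vehicle group at 24 h held 4 and that each dosed or vehicle group at 3-6 h held 10 tumors from 2 cage groups. The labels do not say which cage group of the 3-6 h study was taken at 3 h and which at 6 h. At 1 h and 24 h, cage and treatment cannot be told apart, and the time of a study cannot be told apart from the study itself. At 3-6 h each cage group also held 1 treatment, and the untreated tumors came from 1 cage group. Differences between treatments there are thus not separated from those between cages either.

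Glucocorticoids such as corticosterone rise in mice within minutes of handling or restraint and bind the glucocorticoid receptor, which is held in the cytoplasm by HSP90 and its co-chaperones. The bound receptor enters the nucleus, binds DNA elements and raises a set of genes that includes its own inhibitor FKBP5, the leucine zipper protein GILZ encoded by TSC22D3, the transcription factors ZBTB16 and KLF9, the kinase SGK1, the MAP kinase phosphatase DUSP1 and the EGFR inhibitor ERRFI1. Several of these, DUSP1, SGK1 and ERRFI1 above all, also answer to growth factor, stress kinase and YAP/TEAD signals, whereas FKBP5, TSC22D3 and ZBTB16 are used as more specific readouts of the receptor. The study itself lists SGK1 among the positive effectors of TEAD and NR3C1 among its Hippo-related genes. Of other genes named below, GADD45A and ADM are among its positive effectors of TEAD, and CEBPB and NCOA3 are among its negative ones.

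Of the 94 libraries, 91 listed 11344 to 11665 genes at 1 FPKM or more. The other 3 listed 702 (30 mg/kg at 24 h), 7196 (100 mg/kg at 24 h) and 8531 (200 mg/kg at 1 h), and these shallow libraries were left out of the fit. The relative depth of the 91 libraries ran from 0.480 to 1.44 times their median. All 11 mesothelial markers had a median of 1 FPKM or more, with a summed level of 3803 to 5896 FPKM. The 9 human leukocyte markers summed to 5.99 to 19.2 FPKM, and the leukocyte genes TYROBP, AIF1 and MS4A1 were listed at 0 in all 91 libraries. The 5 endothelial markers summed to 25.9 to 138 FPKM, nearly all of it KDR, while PECAM1 was listed at 0 in 79 libraries. How reads from mouse cells were handled is not given in the sources used here. In a bulk tumor, fewer cells of a type and less RNA per cell cannot be told apart.

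Promoter windows from RefSeq (GRCh38.p14; 250 bases before to 50 after an annotated start) were found for 7 of the 8 members, all but ZBTB16, in 19 windows because some genes have several starts. They were searched on both strands for the glucocorticoid response element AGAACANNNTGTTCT, for its single arm AGAACA, which is also part of the full element, for the cAMP response element TGACGTCA and for the TEAD-binding letters GGAATG. The full glucocorticoid element was in 0 member windows and in 1 of 35116 windows of all genes. The single arm was in 1 window each of FKBP5 and SGK1, against 14.8% of all windows. The cAMP element was in the DUSP1 window, against 1.85% of all windows, and the TEAD letters were in 1 window of NR3C1, against 14.0%. The 4 windows with a match are shown because these letters are known binding sites of the receptor or of the other regulators named above, with the match in capitals, 5′ to 3′ on the gene's strand.
FKBP5, chr6:35728534-35728833, minus strand: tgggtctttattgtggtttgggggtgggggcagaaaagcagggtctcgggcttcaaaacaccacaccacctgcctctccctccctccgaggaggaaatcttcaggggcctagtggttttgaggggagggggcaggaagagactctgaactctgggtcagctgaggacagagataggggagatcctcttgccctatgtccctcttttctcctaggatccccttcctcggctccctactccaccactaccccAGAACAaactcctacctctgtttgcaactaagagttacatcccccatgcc
SGK1, chr6:134177812-134178111, minus strand: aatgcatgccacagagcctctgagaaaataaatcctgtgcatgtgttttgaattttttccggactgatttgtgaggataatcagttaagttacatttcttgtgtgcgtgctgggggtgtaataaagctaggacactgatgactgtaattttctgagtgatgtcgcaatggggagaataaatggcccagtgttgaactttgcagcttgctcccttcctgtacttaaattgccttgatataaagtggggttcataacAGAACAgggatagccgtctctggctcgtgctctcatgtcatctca
DUSP1, chr5:172771146-172771445, minus strand: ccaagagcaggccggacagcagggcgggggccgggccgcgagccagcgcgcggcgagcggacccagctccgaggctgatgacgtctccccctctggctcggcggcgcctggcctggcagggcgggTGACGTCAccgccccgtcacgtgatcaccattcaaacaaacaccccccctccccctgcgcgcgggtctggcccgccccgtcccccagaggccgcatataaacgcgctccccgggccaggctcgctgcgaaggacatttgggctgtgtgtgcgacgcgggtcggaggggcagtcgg
NR3C1, chr5:143435463-143435762, minus strand: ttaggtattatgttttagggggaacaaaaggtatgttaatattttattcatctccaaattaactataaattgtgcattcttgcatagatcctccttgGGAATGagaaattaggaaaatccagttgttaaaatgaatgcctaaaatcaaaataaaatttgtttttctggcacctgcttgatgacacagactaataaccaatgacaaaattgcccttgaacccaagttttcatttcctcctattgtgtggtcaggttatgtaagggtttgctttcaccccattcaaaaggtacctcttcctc
The single arm began at the first transcribed base of this FKBP5 start and at base 6 of this SGK1 start, and the cAMP element began at position -125 from the DUSP1 start. A match is a description of the letters. Binding to these windows was not measured in these tumors, and known distant elements of these genes lie outside such short windows.

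The members spanned the range of expression in these tumors. FPKM is scaled by length, so levels can be set side by side, although probe capture also differs between genes. SGK1 had the highest median over the 91 libraries at 173 FPKM (67.0 to 361), and it stood in the 98th percentile of all gene IDs. DUSP1 followed at 88.8 FPKM (51.9 to 157), NR3C1 at 33.3 FPKM (19.5 to 57.4), ERRFI1 at 18.7 FPKM (4.35 to 68.2) and FKBP5 at 4.26 FPKM (2.53 to 14.4). The last 3 had the lowest listed values: KLF9 had a median of 1.16 FPKM (0.545 to 2.26), TSC22D3 of 0.573 FPKM (0 to 5.34), and ZBTB16 was listed at 0 in 80 of 91 libraries. POLR2A, the large subunit of RNA polymerase II that every cell uses, was also listed at 0 in 37 of 91 libraries, so a listed 0 or a low FPKM in this capture table does not show that a gene was not expressed. The ranges of neighbours in this order overlapped, except those of FKBP5 and KLF9. RNA of the receptor was thus listed in every one of the 91 tumors. The members used as more specific readouts of the receptor, FKBP5, TSC22D3 and ZBTB16, were among the 4 lowest. The spread between tumors was smallest for NR3C1 (coefficient of variation 20.7%) and DUSP1 (22.5%), and among the members above 4 FPKM it was largest for ERRFI1 (55.2%).

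**Figure D1:**
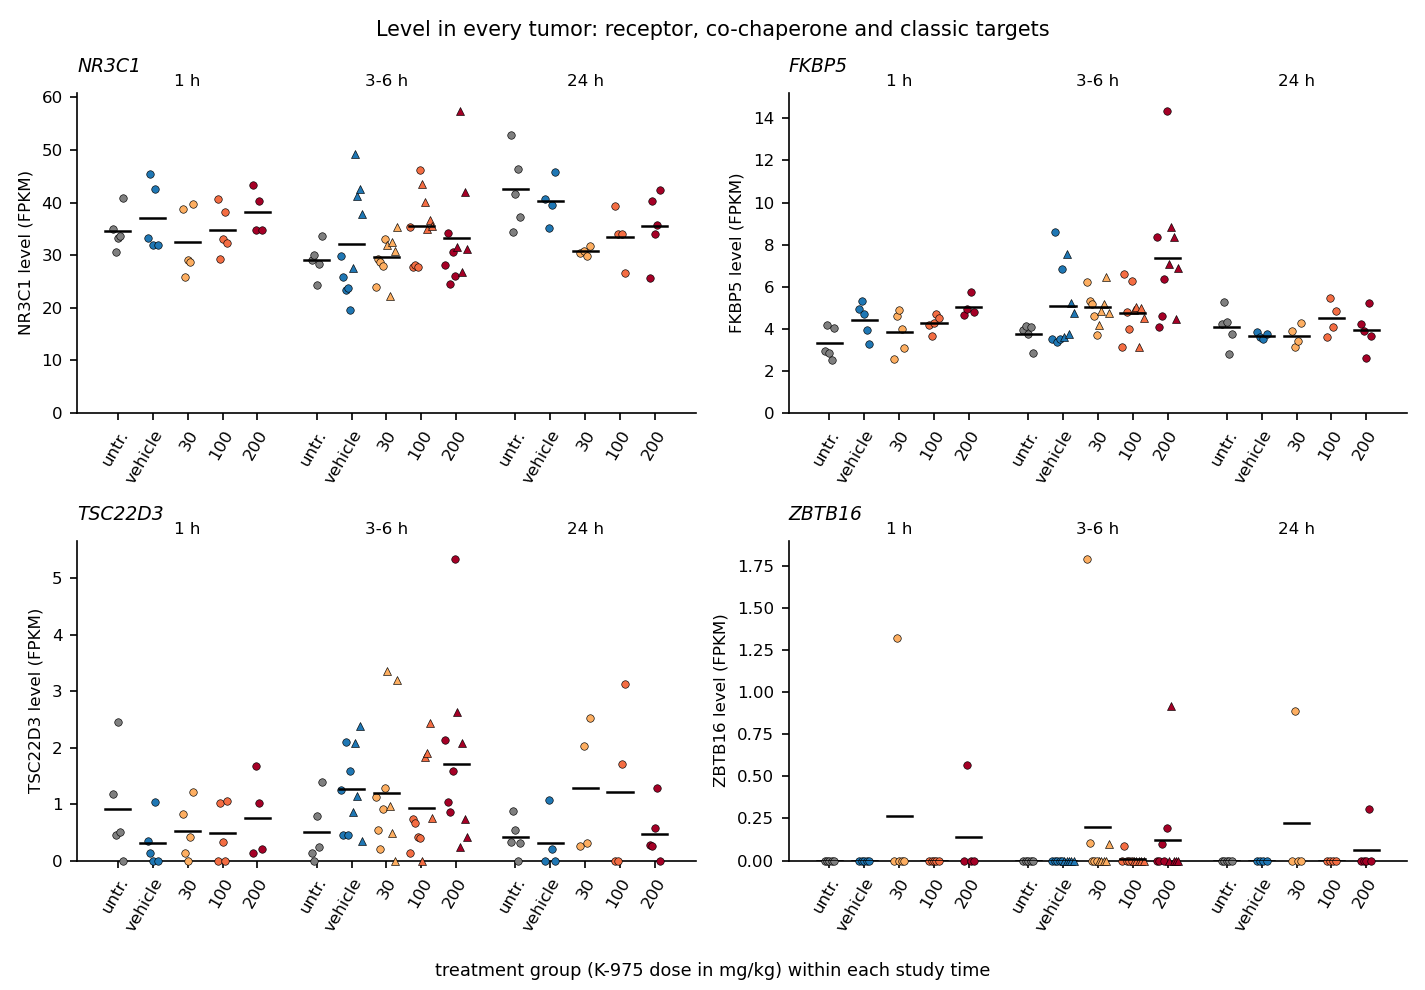
Level in FPKM (linear axis from 0) of NR3C1, FKBP5, TSC22D3 and ZBTB16 in each of the 91 tumors, by study time and by treatment (untreated, vehicle, and K-975 in mg/kg). Triangles mark the second cage group of a 3-6 h group, circles all other tumors, and black bars are group means. The FKBP5 points of the 200 mg/kg group at 3-6 h reach 14.4, and ZBTB16 points lie above 0 only in K-975-dosed groups.

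The vehicle and untreated tumors were compared for differences that go with oral dosing of vehicle, which cannot be told apart from differences between cages. No member passed the test between vehicle and untreated tumors in any of the 3 studies. Levels were compared with limma as log2(FPKM + 1), in 1 fit of 13036 genes that reached 1 FPKM in at least 4 libraries, with Benjamini-Hochberg adjustment over these genes and a threshold of 0.05. On this scale fold changes of low genes are understated. Of the members, 7 passed the filter and ZBTB16 did not. In limma, vehicle minus untreated gave 0 of 7 members, and 0% of all genes, past the threshold at 1 h, at 3-6 h, at 24 h and for the mean of the 3 studies. At an unadjusted limma p under 0.05 the counts were 616, 629, 547 and 625 genes, none of them a member.

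FKBP5, the feedback co-chaperone that lowers the receptor's affinity for hormone, had the smallest unadjusted p among the members for the mean of the 3 vehicle comparisons. Its log2 difference was 0.18 (95% interval -0.04 to 0.40, limma adjusted p = 0.983). For the mean of 3 studies the intervals of the other members all held 0. They ran from -0.13 to 0.20 for NR3C1, from -0.43 to 0.41 for TSC22D3, from -0.23 to 0.09 for KLF9, from -0.25 to 0.30 for SGK1, from -0.21 to 0.21 for DUSP1 and from -0.42 to 0.49 for ERRFI1. Differences within these intervals remain possible. The intervals are not limits of detection, since passing also required adjustment over all tested genes.

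When all orally dosed tumors (vehicle and the 3 K-975 doses, each weighted equally) were set against untreated tumors, 0 of 7 members again passed the threshold. The share of all genes that passed was 0% at 1 h, 0.0537% at 3-6 h, 1.57% at 24 h and 0.0537% for the mean of the 3 studies. FKBP5 was the member with an unadjusted p under 0.05 at 1 h, at 3-6 h and in the mean, at log2 differences of 0.32 ± 0.16, 0.41 ± 0.15 and 0.23 ± 0.09 (SE; limma adjusted p = 0.828, 0.746 and 0.498). At 24 h the FKBP5 difference was -0.03 ± 0.16. At 24 h ERRFI1 differed by -0.77 ± 0.33, NR3C1 by -0.27 ± 0.12 and KLF9 by -0.23 ± 0.11, each with an unadjusted p under 0.05 (limma adjusted p = 0.226, 0.245 and 0.304).

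NR3C1, the glucocorticoid receptor (gene ID ENSG00000113580.14; chr5:143277931-143434774 in GRCh38 as the table gives it, counted from 1, minus strand in GENCODE 29), was the most even member and passed in no comparison with K-975. At 24 h its level was 40.8, 35.1, 39.6 and 45.9 FPKM in the 4 vehicle tumors, and 25.6, 40.3, 34.0, 35.7 and 42.4 FPKM in the 5 tumors given 200 mg/kg. These groups overlapped (log2 difference -0.19 ± 0.16, limma adjusted p = 0.517). At 30 mg/kg the 4 tumors had 30.4, 30.8, 29.9 and 31.8 FPKM, all below every vehicle tumor, with a log2 difference of -0.38 ± 0.16 that did not pass (limma adjusted p = 0.429). The 24 h group means were 30.7 ± 0.811 FPKM for 30 mg/kg (SD, n = 4), 33.5 ± 5.26 for 100 mg/kg (n = 4) and 35.6 ± 6.53 for 200 mg/kg (n = 5), against 40.3 ± 4.43 in vehicle tumors (n = 4), so that the lowest dose lay farthest from vehicle.

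NR3C1 passed between cage groups of vehicle tumors, which may also differ in sampling time within 3-6 h. The first vehicle cage group at 3-6 h had 29.8, 25.8, 23.4, 23.8 and 19.5 FPKM, and the second had 27.6, 49.3, 41.3, 42.5 and 37.9 FPKM. In the second cage group 4 of 5 tumors lay above every tumor of the first, and the log2 difference of 0.67 ± 0.15 passed the threshold (limma adjusted p = 0.0161). Between vehicle cage groups 0.33% of all genes passed. NR3C1 was the 1 member among them, ERRFI1 and DUSP1 were higher by 0.87 ± 0.41 and 0.44 ± 0.19 without passing (limma adjusted p = 0.447 and 0.391), and the relative depth was 0.830 to 1.15 in the first and 0.657 to 0.995 in the second group. The part of depth in this difference was not tested. The call was lost without any of 4 tumors, replicates 3 and 5 of the first and 2 and 3 of the second cage group (limma adjusted p = 0.0563 to 0.0869), and also with all 94 libraries or in a fit of only these groups. In the same comparison of cage groups, the shares of genes that passed were 0.0153% (200 mg/kg), 0.046% (100 mg/kg) and 0% (30 mg/kg), with 0 members among them. NR3C1 differed by 0.34 ± 0.15 between the cage groups at 200 mg/kg (limma adjusted p = 0.579).

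Untreated tumors also differed between studies. NR3C1 was 29.0, 30.0, 24.3, 28.3 and 33.6 FPKM in the untreated tumors of the 3-6 h study and 52.8, 34.3, 41.6, 46.5 and 37.2 FPKM in those of the 24 h study. The groups did not overlap, and the log2 difference of 0.52 ± 0.15 passed (limma adjusted p = 0.0240), where 4.36% of all genes passed. Between the untreated tumors of 3-6 h and 1 h 0.0997% of genes passed, and between those of 24 h and 1 h 0.00767% did, with 0 members in both. The 2 untreated groups of 24 h and 3-6 h also stood apart in other values, none of which overlapped: genes at 1 FPKM or more (11344 to 11443 against 11449 to 11560), relative depth (0.605 to 1.04 against 1.10 to 1.29) and summed endothelial markers (35.3 to 64.1 against 73.4 to 106 FPKM). The endothelial sum is nearly all KDR. The part of these values in the differences was not tested. The NR3C1 call was lost without replicate 3 of the 3-6 h group or without replicates 1 or 4 of the 24 h group (limma adjusted p = 0.0671 to 0.118).

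FKBP5 (ENSG00000096060.14; chr6:35573585-35728583, minus strand) had its highest levels in the 3-6 h study and in the 200 mg/kg group there. Untreated tumors at 3-6 h had 3.95, 4.12, 3.76, 4.09 and 2.87 FPKM. Vehicle tumors ranged from 3.37 to 8.59 FPKM with a median of 4.25, and tumors given 200 mg/kg from 4.07 to 14.4 FPKM with a median of 6.99 (n = 10 each). Of the tumors given 200 mg/kg, 9 of 10 lay above the vehicle median and above the highest untreated tumor, and 2 lay above the highest vehicle tumor. Over all 40 orally dosed tumors of that study, 30 lay above the highest untreated tumor, 5 of them among the 10 vehicle tumors.

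The test did not carry these differences past the threshold against vehicle. The log2 difference between 200 mg/kg and vehicle was 0.44 ± 0.14 (95% interval 0.17 to 0.72, limma adjusted p = 0.243), and the linear trend was 0.21 ± 0.06 per 100 mg/kg (limma adjusted p = 0.216). In these comparisons 0.069% and 0.215% of all genes passed, and 0 members. The trend rested on the top dose, since 30 mg/kg (5.05 ± 0.844 FPKM, SD) and 100 mg/kg (4.73 ± 1.14) were close to vehicle (5.08 ± 1.93), all with n = 10, and 200 mg/kg was at 7.34 ± 3.00. Both cage groups of the 200 mg/kg dose were high, at 7.55 ± 4.16 and 7.13 ± 1.70 FPKM (n = 5 each). Against untreated tumors as the control the same comparisons passed, at 0.74 ± 0.17 (limma adjusted p = 0.0323) and 0.31 ± 0.07 per 100 mg/kg (limma adjusted p = 0.0274). The 200 mg/kg tumors and the vehicle tumors had received the same volume, and the untreated tumors none.

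At 1 h FKBP5 was 2.95, 4.18, 2.86, 2.53 and 4.05 FPKM in untreated tumors and 4.67, 4.95, 5.76 and 4.79 FPKM in the 4 tumors given 200 mg/kg, and these did not overlap. Vehicle tumors lay in between and reached both, at 4.94, 5.32, 4.71, 3.95 and 3.26 FPKM. The log2 difference between 200 mg/kg and vehicle was 0.16 ± 0.21 at 1 h (limma adjusted p = 1). By 24 h FKBP5 was even across groups: vehicle tumors had 3.83, 3.62, 3.51 and 3.73 FPKM, and tumors given 200 mg/kg had 4.24, 3.90, 2.60, 5.24 and 3.63 FPKM. Their log2 difference was 0.05 ± 0.21. The differences between the studies in the effect of 200 mg/kg did not pass (24 h minus 3-6 h, -0.39 ± 0.25, limma adjusted p = 0.452, and 3-6 h minus 1 h, 0.28 ± 0.25, limma adjusted p = 1).

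TSC22D3, which encodes the anti-inflammatory leucine zipper protein GILZ (ENSG00000157514.16; chrX:107713221-107777337, minus strand), had values too low to be followed closely. It was listed at 0 in 15 of 91 libraries and reached 1 FPKM in 34. It shares its locus with NCBP2L on the other strand, and the use of strand in the counting is not given in the sources used here. In the 1 h study its level ranged from 0 to 2.45 FPKM (median 0.381, n = 24), in the 3-6 h study from 0 to 5.34 FPKM (median 0.869, n = 45) and in the 24 h study from 0 to 3.13 FPKM (median 0.311, n = 22). No comparison reached an unadjusted limma p under 0.05 in 30 comparisons. For vehicle minus untreated at 3-6 h its log2 difference was 0.59 ± 0.32 (limma adjusted p = 0.988), with an interval from -0.05 to 1.23 that shows how wide the limits for this gene are.

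ZBTB16, the transcription factor PLZF (ENSG00000109906.13; chr11:114059593-114250676, plus strand in GENCODE 29), is strongly induced by glucocorticoid in many cells, and it was listed at 0 in most libraries. It was at 0 in all 15 untreated and all 19 vehicle libraries of the fit, and above 0 in 11 of 57 K-975-dosed libraries (19.3%). At 1 h the values above 0 were 0.57 FPKM at 200 mg/kg and 1.32 FPKM at 30 mg/kg, and at 24 h they were 0.307 FPKM at 200 mg/kg and 0.885 FPKM at 30 mg/kg. At 3-6 h they were 0.0983, 0.192 and 0.918 FPKM at 200 mg/kg, 0.0856 FPKM at 100 mg/kg and 1.79, 0.107 and 0.0970 FPKM at 30 mg/kg. By dose these are 5 of 19 libraries with 30 mg/kg, 1 of 19 with 100 mg/kg and 5 of 19 with 200 mg/kg, which is not an order by dose.

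The split of ZBTB16 between dosed and control tumors was noticed after its values were seen. Among the 84 gene IDs that were above 0 in 11 of the 91 libraries, 1.19% were above 0 in K-975-dosed libraries alone, which is 1 gene, ZBTB16 itself. The libraries with ZBTB16 above 0 had a median relative depth of 1.09, against 0.989 for the 46 dosed libraries at 0 and 0.985 for the 34 control libraries, and the part of depth was not tested. In limma without the filter, ZBTB16 had its smallest p between the 30 mg/kg cage groups (log2 difference -0.30, limma adjusted p = 0.780), and no comparison passed. FPKM keep no read counts, so how many reads stand behind these values is unknown.

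**Figure D2:**
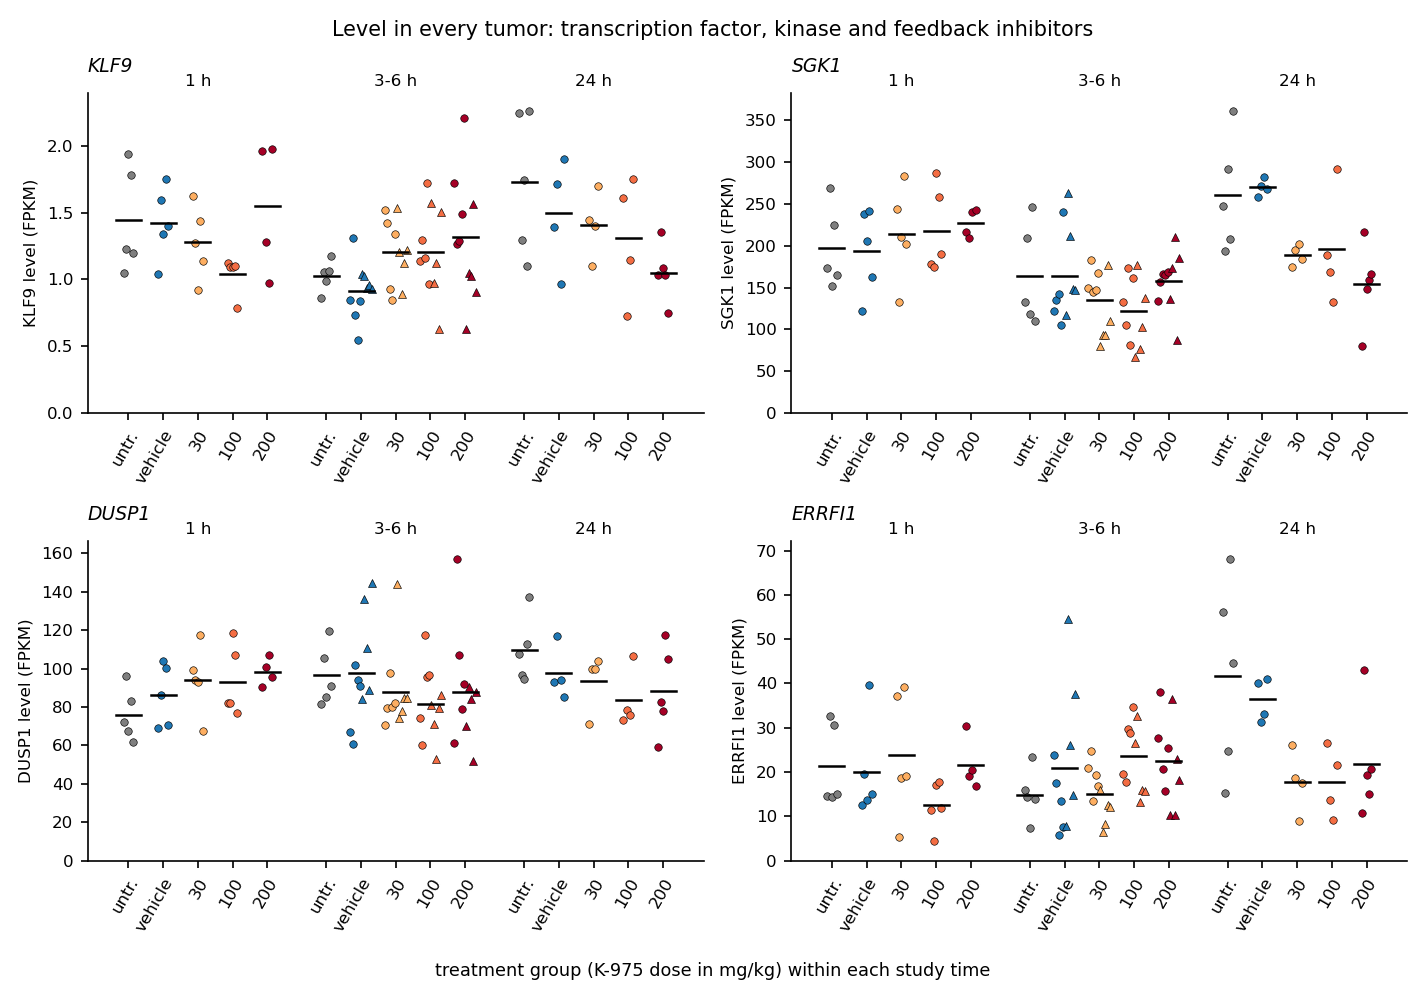
Level in FPKM (linear axis from 0) of KLF9, SGK1, DUSP1 and ERRFI1 in each of the 91 tumors, laid out by study time and treatment, with triangles for the second cage group at 3-6 h, circles for all other tumors and black bars for group means. The 5 SGK1 points at 200 mg/kg and 24 h all lie below the 4 vehicle points of 258 to 283 FPKM.

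KLF9, a zinc finger transcription factor induced by glucocorticoid and thyroid hormone (ENSG00000119138.4; chr9:70384597-70414624, minus strand), stayed near 1 FPKM and passed the threshold in 0 of 30 comparisons. At 3-6 h vehicle tumors had 0.545 to 1.31 FPKM (median 0.933) and tumors given 200 mg/kg had 0.631 to 2.21 FPKM (median 1.28), n = 10 each, so that the groups overlapped. All 3 doses were higher than vehicle at 3-6 h without passing, by 0.20 ± 0.10 with the lowest, 0.20 ± 0.10 with the middle and 0.26 ± 0.10 with the highest dose (limma adjusted p = 0.698, 0.483 and 0.457), and the trend was 0.10 per 100 mg/kg (limma adjusted p = 0.585). Vehicle minus untreated at 3-6 h was -0.09 ± 0.12 (limma adjusted p = 0.990), and with untreated tumors as the control the 3 differences were 0.11, 0.11 and 0.17. At 30 and 100 mg/kg 0.0153% and 0.43% of all genes passed. At 200 mg/kg the first cage group had 1.60 ± 0.391 FPKM against 1.03 ± 0.339 in the second (SD, n = 5 each, log2 difference -0.35 ± 0.14, limma adjusted p = 0.531).

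At 24 h the KLF9 difference pointed the other way. Vehicle tumors had 1.39, 1.72, 0.967 and 1.90 FPKM and tumors given 200 mg/kg had 1.03, 1.36, 1.08, 1.04 and 0.747 FPKM. The log2 difference of -0.27 ± 0.15 and the trend of -0.14 per 100 mg/kg did not pass (limma adjusted p = 0.268 and 0.239). The difference between the 24 h and 3-6 h effects of 200 mg/kg was -0.53 ± 0.18 (limma adjusted p = 0.0969), where 1.72% of all genes passed. It passed after quantile normalization (-0.62, limma adjusted p = 0.0492), with all 94 libraries and array weights (-0.53, limma adjusted p = 0.0457) and without replicate 2 of the 200 mg/kg group at 24 h (-0.58, limma adjusted p = 0.0478).

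SGK1 (ENSG00000118515.11; chr6:134169246-134318058, minus strand) is a kinase that raises sodium transport and cell survival and is induced by glucocorticoid within an hour in many cells. It was the 1 member that passed the threshold with K-975, as a lower level at 200 mg/kg and 24 h. At 24 h vehicle tumors had 258, 271, 283 and 268 FPKM. Tumors given 200 mg/kg had 79.7, 217, 149, 159 and 166 FPKM, all below every vehicle tumor, and the mean was 0.570 times that of vehicle (154 ± 49.2 against 270 ± 10.2 FPKM, SD). The log2 difference of -0.88 ± 0.26 passed the threshold (limma adjusted p = 0.0264), where 7.41% of all genes passed. SGK1 was the 1 member among them.

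Lower doses gave levels between those groups. Tumors given 30 mg/kg had 175, 196, 202 and 185 FPKM at 24 h, again all below every vehicle tumor. The log2 difference of -0.51 ± 0.27 did not pass (limma adjusted p = 0.536). It passed in a fit of only these 2 groups (limma adjusted p = 0.0181), the kind of fit in which the 200 mg/kg call was lost. In the fit of all groups no member passed at 30 mg/kg or at 100 mg/kg at 24 h, where 0.0384% and 1.12% of all genes passed. At 100 mg/kg the 4 tumors had 189, 168, 133 and 292 FPKM, the last above every vehicle tumor. The linear trend at 24 h was -0.36 ± 0.12 per 100 mg/kg (limma adjusted p = 0.0529), and 5.61% of all genes and 0 members passed. Without the 292 FPKM tumor the trend was -0.38 and passed (limma adjusted p = 0.0345), as it did without the 217 FPKM tumor at 200 mg/kg (-0.43, limma adjusted p = 0.0166).

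The untreated tumors of the 24 h study spread more widely than the vehicle tumors, at 247, 193, 292, 208 and 361 FPKM, and with untreated tumors as the control the log2 difference was -0.79 ± 0.24 (limma adjusted p = 0.0309). Leaving out vehicle replicates 1, 2 or 3 (limma adjusted p = 0.0513, 0.0608 and 0.0722) or replicate 1 at 200 mg/kg, the tumor with 79.7 FPKM (-0.66, limma adjusted p = 0.153), ended the call, as did keeping all 94 libraries or fitting only these groups. Mesothelial markers summed to 4616 to 5359 FPKM at 200 mg/kg and to 4018 to 4204 FPKM in vehicle tumors. The 5 housekeeping genes, a sum made up mostly of GAPDH, reached 3508 to 4905 against 4946 to 5375 FPKM. Genes at 1 FPKM or more numbered 11424 to 11613 against 11356 to 11422. None of these overlapped, and their part was not tested.

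At the earlier times SGK1 did not pass with 200 mg/kg. At 1 h vehicle tumors had 122, 238, 205, 242 and 163 FPKM and tumors given 200 mg/kg had 217, 210, 241 and 243 FPKM (log2 difference 0.27 ± 0.26, limma adjusted p = 1). In the 1 h study 0.00767% of genes passed for the 100 mg/kg dose and 0% for either other dose or the trend, and 0 members. At 3-6 h vehicle tumors had a median of 145 FPKM (105 to 264) and 200 mg/kg tumors of 165 FPKM (87.5 to 211), with a log2 difference of -0.01 ± 0.17. At 100 mg/kg the 3-6 h median was 119 FPKM (67.0 to 177), with a log2 difference of -0.44 ± 0.17 that did not pass (limma adjusted p = 0.328). The effect of 200 mg/kg at 24 h minus that at 1 h was -1.15 ± 0.37, and minus that at 3-6 h it was -0.86 ± 0.31, neither of which passed (limma adjusted p = 0.123 and 0.129). Of all genes, 0.583% passed for 24 h minus 1 h and 0% for 3-6 h minus 1 h, with 0 members. Between the 30 mg/kg cage groups at 3-6 h SGK1 differed by -0.57 ± 0.24 (limma adjusted p = 0.702). With all 94 libraries and array weights both SGK1 differences of effect passed (-1.15, limma adjusted p = 0.0246, and -0.92, limma adjusted p = 0.0307), as they did without the 217 FPKM tumor at 24 h (limma adjusted p = 0.0455 and 0.0497).

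DUSP1, the phosphatase that inactivates stress-activated MAP kinases and an immediate early gene in its own right (ENSG00000120129.5; chr5:172768090-172771195, minus strand), was high and even, and passed in 0 of 30 comparisons. At 1 h, when an immediate early response would be sampled soonest, untreated tumors had 72.2, 95.9, 67.4, 82.9 and 61.6 FPKM and vehicle tumors had 69.1, 86.3, 104, 100 and 70.8 FPKM. These overlapped, with a log2 difference of 0.18 ± 0.19 (95% interval -0.19 to 0.55, limma adjusted p = 1). Tumors given 200 mg/kg had 90.2, 101, 107 and 95.7 FPKM at 1 h (log2 difference from vehicle 0.21 ± 0.20, limma adjusted p = 1). At 24 h the group means ran from 83.5 ± 15.4 FPKM at 100 mg/kg to 110 ± 17.0 FPKM in untreated tumors (SD, n = 4 and 5), and untreated tumors at 24 h exceeded those at 1 h by 0.53 ± 0.19 without passing (limma adjusted p = 0.304).

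ERRFI1, the feedback inhibitor of EGFR also called MIG6 (ENSG00000116285.12; chr1:8004404-8026308, minus strand), varied most of the well-expressed members. At 24 h untreated tumors had 56.1, 15.3, 24.7, 68.2 and 44.5 FPKM and vehicle tumors 40.2, 31.4, 33.2 and 40.9 FPKM. Tumors given 30 mg/kg had 26.1, 18.7, 8.91 and 17.4 FPKM and those given 100 mg/kg 26.6, 13.7, 9.07 and 21.6 FPKM, and both groups lay wholly below vehicle. The share of all genes for which groups of this size lie apart was not counted. At 200 mg/kg the values were 10.7, 43, 19.4, 15.1 and 20.6 FPKM, 1 of which was above every vehicle tumor. The log2 differences from vehicle of -1.07 ± 0.45, -1.09 ± 0.45 and -0.86 ± 0.43 did not pass (limma adjusted p = 0.408, 0.237 and 0.228), and they show no order by dose. The effect of 200 mg/kg at 24 h minus that at 3-6 h was -1.15 ± 0.52 (limma adjusted p = 0.241).

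ERRFI1 passed between the untreated tumors of the 24 h and the 3-6 h studies. The latter had 15.9, 14.3, 7.25, 23.3 and 13.8 FPKM, overlapping the former, with a log2 difference of 1.32 ± 0.41 (limma adjusted p = 0.0426). The call was lost without any of 7 tumors of the 10 (limma adjusted p up to 0.172), and it and that of NR3C1 were lost with all 94 libraries or in a fit of only these groups. SGK1 and KLF9 were higher in the same direction by 0.71 ± 0.24 and 0.41 ± 0.14 without passing (limma adjusted p = 0.0806 and 0.0756). With all 94 libraries and array weights both passed (limma adjusted p = 0.0342 and 0.0454), and KLF9 also passed after quantile normalization (limma adjusted p = 0.0288). SGK1 passed without replicate 4 of the 3-6 h group or replicate 2 of the 24 h group. KLF9 passed without replicates 2 or 4 of the 24 h group. Against the untreated tumors of the 1 h study ERRFI1 was higher at 24 h by 0.84 ± 0.41 (limma adjusted p = 0.488). FKBP5 and TSC22D3 did not reach an unadjusted p under 0.05 between 24 h and 3-6 h.

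**Figure D3:**
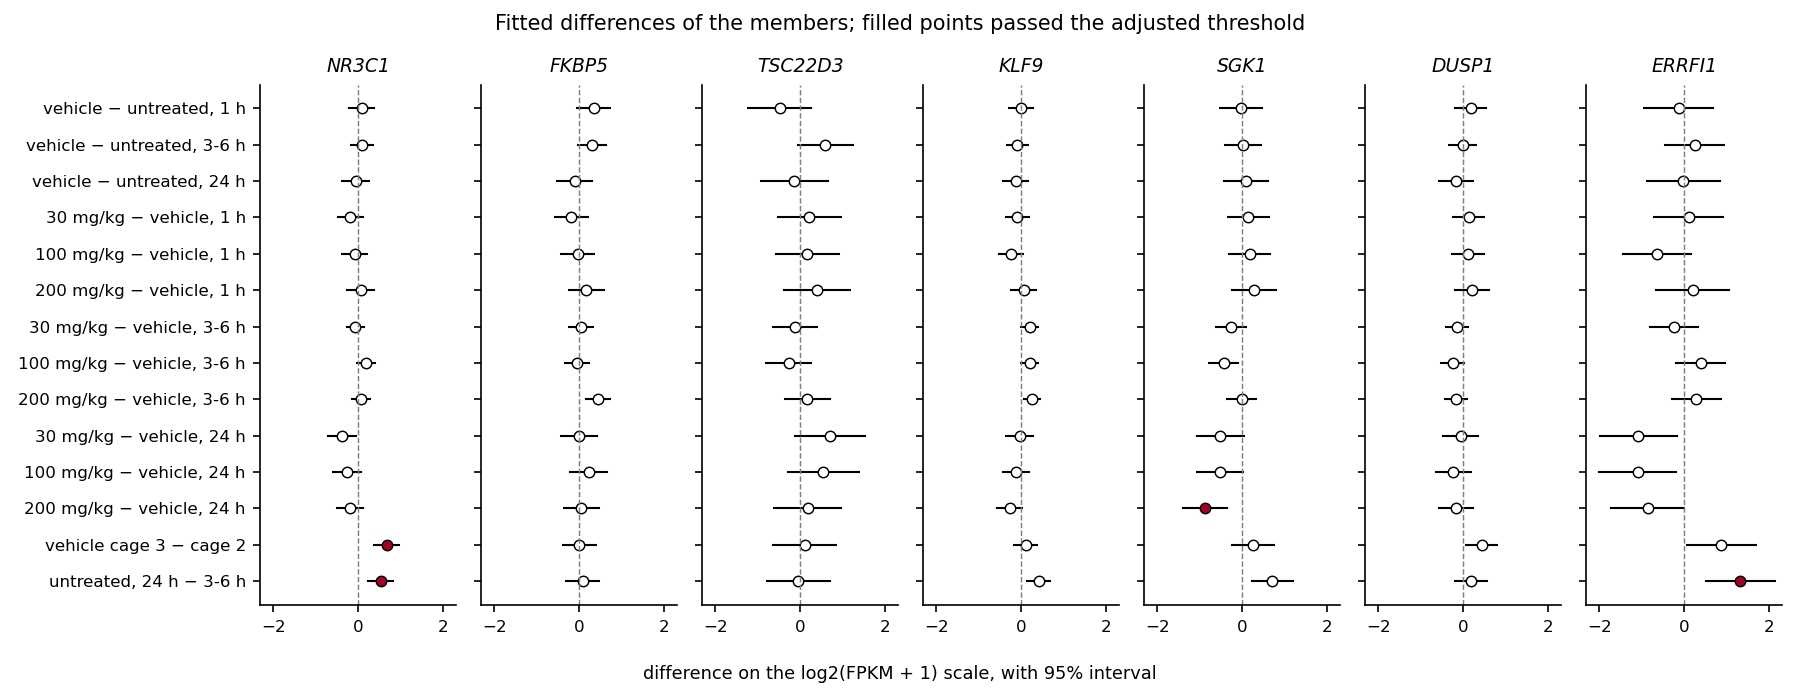
Fitted differences of the 7 tested members on the log2(FPKM + 1) scale (horizontal axis) for the vehicle, dose, vehicle cage and untreated study comparisons (rows), as points with 95% intervals. Filled points passed the adjusted threshold of 0.05, which were NR3C1 in 2 rows and SGK1 and ERRFI1 in 1 row each.

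Across the 30 comparisons, NR3C1 passed in 2, SGK1 and ERRFI1 in 1 each, and FKBP5, TSC22D3, KLF9 and DUSP1 in 0. An unadjusted p under 0.05 was reached by KLF9 in 9 comparisons, by SGK1 and ERRFI1 in 7 each, by NR3C1 and FKBP5 in 5 each, by DUSP1 in 2 and by TSC22D3 in 0. The comparisons share groups, and 3.34% to 21.9% of all genes had such a p in each of them. Of the 4 passing differences, 1 involved K-975 and the others lay between cage groups of vehicle tumors or between untreated tumors of 2 studies.

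Other genes of the pathway were read from lists chosen with the members. Of 40 further genes induced by the receptor, 31 were tested, and 0 passed for vehicle minus untreated in any study. For 200 mg/kg minus vehicle at 24 h 3 of 31 passed, 1 higher and 2 lower, against 7.41% of all genes. CRISPLD2, a secreted anti-inflammatory protein, was higher by 0.81 (limma adjusted p = 0.0246), and the growth arrest gene GADD45A was lower at -0.56 (limma adjusted p = 0.0362). The median log2 difference of this list was -0.19, against 0.04 over all genes. For untreated tumors at 24 h against 3-6 h 9 of 31 passed, 8 higher and 1 lower, against 4.36% of all genes, with a list median of 0.24 against -0.04 over all genes. Those with the smallest p were CEBPB (0.88), MT1X (1.54), ANGPTL4 (2.21) and SPSB1 (0.83), with limma adjusted p from 0.00140 to 0.00642. The sodium channel subunit SCNN1A was the 1 lower gene (-1.46) and was higher in all orally dosed against untreated tumors at 24 h (1.38, limma adjusted p = 0.0178). CEBPB was also higher in the second vehicle cage group (0.73, limma adjusted p = 0.0383).

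Of 16 inflammatory genes that the receptor represses, 15 were tested, and the 2 that passed anywhere were IL1A and MMP3, higher in untreated tumors at 24 h than at 3-6 h by 1.36 and 2.77 (limma adjusted p = 0.0145 and 0.0180). The list median there was 1.47, and 13 of 15 had an unadjusted p under 0.05, against 17.9% of all genes. Of 23 genes of the receptor's machinery, 19 were tested. FKBP4, the co-chaperone that opposes FKBP5, was lower at 200 mg/kg in the 3-6 h study (-0.29, limma adjusted p = 0.0338) and along its dose trend (-0.13 per 100 mg/kg, limma adjusted p = 0.0202). The chaperone HSP90AB1 was lower at 200 mg/kg at 24 h (-0.19, limma adjusted p = 0.0250) and along the 24 h trend (-0.08 per 100 mg/kg, limma adjusted p = 0.0497). The coactivator NCOA3 was higher along the 24 h trend (0.13, limma adjusted p = 0.0183). HSPA8 was lower in untreated tumors at 24 h than at 3-6 h (-0.33) and between 100 mg/kg cage groups (-0.47). Of 21 immediate early genes tested, DUSP4 (0.85) and FOSL1 (1.45) passed, and of 9 tested genes of EGFR and its ligands EGFR (0.26) passed. These calls were all between untreated tumors at 24 h and 3-6 h, where 4.36% of all genes passed. No gene of the last 2 lists passed with K-975, and none of the 5 lists had a gene that passed at 1 h.

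Between tumors of the same group some pairs of members varied together and others did not. After group means were removed, Spearman's rho over 91 libraries was 0.54 for DUSP1 with SGK1, 0.50 for ERRFI1 with NR3C1, 0.38 for ERRFI1 with SGK1, 0.34 for DUSP1 with ERRFI1, 0.31 for ERRFI1 with KLF9 and 0.24 for FKBP5 with SGK1. NR3C1 had 0.11 with SGK1 and -0.03 with DUSP1. The correlation was -0.02 for FKBP5 with TSC22D3, -0.03 for FKBP5 with KLF9 and 0.10 for KLF9 with TSC22D3. The low levels of TSC22D3 and KLF9 limit what such a correlation can show. All points come from the same libraries and share their depth and scaling, and the values are descriptions with no test.

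**Figure D4:**
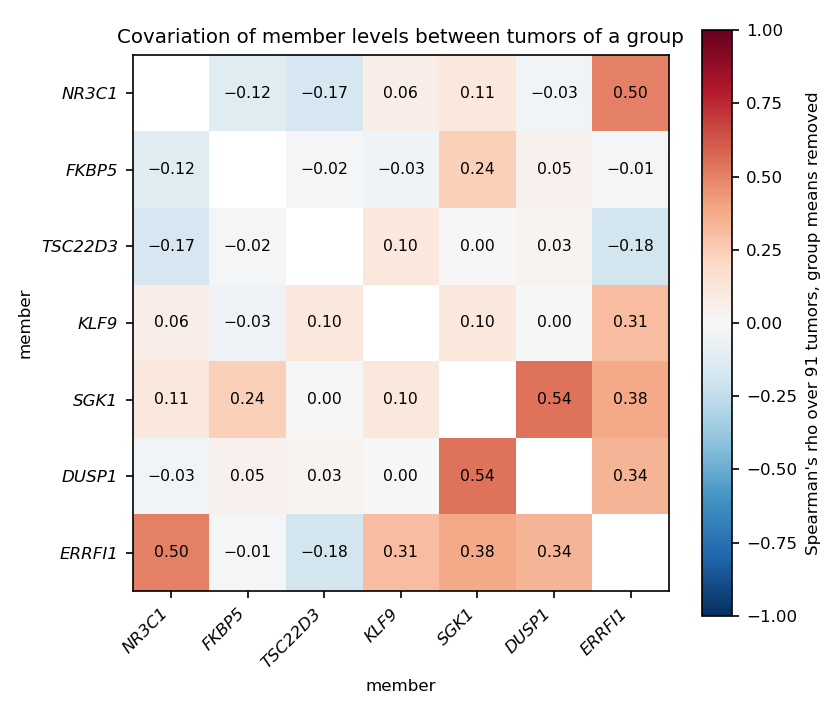
Spearman's rho between each pair of the 7 tested members (rows and columns, 21 pairs) over 91 tumors after removal of group means, on a colour scale from -1 to 1. The pairs of DUSP1 with SGK1 (0.54) and ERRFI1 with NR3C1 (0.50) are the highest, and those among FKBP5, TSC22D3 and KLF9 run from -0.03 to 0.10.

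The genes most like each member, by the same measure over 91 libraries, differed from member to member. SGK1 went with the aldose reductase AKR1B1 (rho 0.84), the chemokine CCL20 (0.80) and the hyaluronan receptor CD44 (0.79). ERRFI1 went with TGFBI (0.83), a matrix protein, HAUS6 (0.81) and CDCP1 (0.80). DUSP1 went with adrenomedullin ADM (0.76), the AP-1 subunit JUN (0.75) and the mRNA-decay factor ZFP36L1 (0.74). NR3C1 went with PFKFB4 (0.68), SH3BP5 (0.66) and ARHGAP45 (0.66). FKBP5 went with SKIC8 (0.60), EBNA1BP2 (0.48) and SMC2 (0.47). The closest genes of TSC22D3 and KLF9 reached 0.47 (REEP1) and 0.42 (CHST14). Without removal of group means the first values were 0.85 for SGK1, 0.82 for ERRFI1, 0.66 for DUSP1, 0.75 for NR3C1 and 0.36 for FKBP5.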

How the data were processed

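The authors deposited 1 table of FPKM with a column for each tumor, from RNA captured with KAPA HyperCap probes. The submitters' processing notes name STAR and GRCh38, and the quantification tool, its annotation and the handling of mouse reads are not given in the sources used here. FPKM hold no read counts, so the number of reads behind a value is unknown. Depth was judged by the genes at 1 FPKM or more and by a relative depth from 1210 rarely listed genes. The table had 20555 entries, of which the entry with the highest mean of each of 20239 gene IDs was kept. Blank cells (32 in 21 genes) were read as 0, and 0 columns were left unused. Gene starts were raised by 1 base, since the table counts starts from 0 (its starts were 1 base below those of GENCODE 29 for 8 of 8 members).

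The 3 shallow libraries, under 10000 genes at 1 FPKM, were left out. limma 3.58.1 (R 4.3.3) was fitted to log2(FPKM + 1) of the 19 groups in 1 model, with trend and robust variance, on 13036 genes with at least 1 FPKM in at least 4 libraries. The script was tested on simulated data. No 2 libraries were identical, and their highest correlation was 0.990. Replicates are separate tumors, and p-values measure the spread between tumors of a cage group, not the spread between cage groups. Where groups are said not to overlap, the share of all genes that did not overlap was not counted. The members and lists were chosen with earlier results of these data known. All members are described, with statistics where the unadjusted p was under 0.05, with up to 4 genes of smallest p per list and comparison, and with the 3 genes most like each member. Other settings (the libraries kept, array weights, pseudocount, filter, normalization, variance model, samples in the fit and control group) and the omission of each library were tried. Python 3.11.15, pandas 2.3.3 and matplotlib 3.10.9 were used for tables and figures. The result of 1 gene of these lists is not reported here.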

Additional observations from a re-analysis of the deposited data

Results flagged for a closer look

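In 9 of 133 tested combinations of a member and a group of 4 or 5 tumors, 1 tumor stood far from the others of its group, a gap that chance gives in about 1 of 20 groups. FKBP5 was low in replicate 5 of the untreated 3-6 h group (2.87 FPKM, the others 3.76 to 4.12) and in replicate 3 of the second 100 mg/kg cage group at 3-6 h (3.15 FPKM, the others 4.53 to 5.03). TSC22D3 was high in replicate 5 of the first 200 mg/kg cage group at 3-6 h (5.34 FPKM, the others 0.869 to 2.13). KLF9 was low in replicate 5 at 100 mg/kg and 1 h (0.786 FPKM, the others 1.09 to 1.12). SGK1 was high in replicate 5 of the first vehicle cage group at 3-6 h (240.2 FPKM, the others 105 to 142). DUSP1 was high in replicate 1 of the second 30 mg/kg cage group at 3-6 h (144 FPKM, the others 74.1 to 84.7) and in replicate 4 at 100 mg/kg and 24 h (106 FPKM, the others 73.2 to 78.2), and low in replicate 2 at 30 mg/kg and 24 h (71.3 FPKM, the others 99.6 to 104). ERRFI1 was high in replicate 4 of the vehicle group at 1 h (39.7 FPKM, the others 12.5 to 19.6).

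Among the libraries left out of the fit, the one at 30 mg/kg and 24 h with 702 genes listed SGK1 at 2431 FPKM and the other 7 members at 0. ZBTB16, which did not pass the filter, was above 0 in 11 of 57 K-975-dosed tumors and in 0 of 34 control tumors.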

How the results depend on the processing

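No member's difference changed sign among those with an unadjusted p under 0.05, under any alternative. The count of members past the threshold changed as follows. With all 94 libraries it went from 0 to 3 for 30 mg/kg at 24 h (NR3C1, DUSP1 and ERRFI1) and to 0 for 200 mg/kg at 24 h, for vehicle cage groups and for untreated 24 h against 3-6 h. The library that this adds to the 30 mg/kg group at 24 h has 702 genes at 1 FPKM or more. It lists NR3C1, DUSP1 and ERRFI1 at 0. In the fit with array weights it had a weight of 0.00243, and no member passed for 30 mg/kg at 24 h. The shares of all genes that passed in these other fits are not given here. With array weights on all 94 libraries the count became 1 for the 24 h trend, 1 for the 24 h minus 1 h effect, 2 for the 24 h minus 3-6 h effect and 4 for untreated 24 h against 3-6 h. Without the filter the last was 1. Quantile normalization gave 1 for the 24 h minus 3-6 h effect and 3 for untreated 24 h against 3-6 h (NR3C1, KLF9 and ERRFI1). In fits of only the groups compared, 30 mg/kg at 24 h had 1, and 200 mg/kg at 24 h, vehicle cage groups and untreated 24 h against 3-6 h had 0. With untreated tumors in place of vehicle, 200 mg/kg at 3-6 h and its trend had 1 each. The cause was not tested. Leaving out 1 library in turn gave 0 to 4 for untreated 24 h against 3-6 h, 0 to 1 for vehicle cage groups, 200 mg/kg at 24 h, the 24 h trend and the 24 h minus 1 h effect, and 0 to 2 for the 24 h minus 3-6 h effect. A pseudocount of 0.1 and limma without trend changed no count, and quantile normalization moved the median of all genes by at most 0.04 on the log2 scale.

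No paired analysis was possible because replicates were numbered within groups and the numbers pair no tumors. FPKM without read counts limit what can be said of TSC22D3, ZBTB16 and KLF9, which lie near or below 1 FPKM.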

Other observations

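The tumor with the highest FKBP5 of all 91, replicate 5 of the first 200 mg/kg cage group at 3-6 h (14.4 FPKM), also had the highest TSC22D3 (5.34 FPKM) and, within the 3-6 h study, the highest KLF9 (2.21 FPKM), and it was 1 of the 11 tumors with ZBTB16 above 0 (0.192 FPKM). Its SGK1 (169 FPKM), DUSP1 (92.2 FPKM), ERRFI1 (25.3 FPKM) and NR3C1 (26.0 FPKM) lay within the range of the 3-6 h study. It was singled out after its values were seen. Without it the FKBP5 difference between 200 mg/kg and vehicle at 3-6 h was 0.32 ± 0.13 (SE, limma adjusted p = 0.614).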
